A study of Mus musculus with 8 samples.

Results

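Occupancy of phosphorylated CREB1 was examined at 10 genes that carry the insulin signal to AKT and the FOXO transcription factors in mouse muscle. The genes were chosen by name as Insr, Igf1r, Irs1, Irs2, Pik3r1, Akt1, Akt2, Foxo1, Foxo3 and Foxo4, out of 21887 protein-coding genes. Earlier results of these data were known when they were chosen. A peak was given to a gene when its summit, the position of strongest enrichment, lay inside the span of the gene in GRCm38 or within 10000 bp of it. By that rule 67 of the 37343 peaks in the series belonged to these genes, and they fell into 32 of 17607 merged regions.

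The study profiled phospho-CREB1 by chromatin immunoprecipitation and sequencing (ChIP-seq) in muscle of male Balb/c mice. The C26 group carried a tumor grown from C26 colon adenocarcinoma cells, which were placed under the skin of the right flank at 2 months of age and cause muscle wasting. The CTRL group was made up of control mice, and the labels do not say what they received. There were 2 phospho-CREB1 libraries per group, called CTRL 1, CTRL 2, C26 1 and C26 2 here, and values for several libraries are given in that order. A further 4 libraries were input. The labels name the gastrocnemius, while the extraction protocol names the quadriceps and lets the antibody be one to CREB or to phospho-CREB1. The treatment protocol gives tumor-bearing mice either rolipram, an inhibitor of phosphodiesterase 4, or its vehicle, and does not say which the profiled mice received. The labels also do not say that the 2 libraries of a group came from different mice, so p-values measure only the spread between libraries, which may be technical. The muscle was profiled in bulk, and a change in the mix of cells and one within muscle fibers cannot be told apart.

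Insulin and IGF-1 bind the receptor kinases INSR and IGF1R, which phosphorylate the docking proteins IRS1 and IRS2. These recruit phosphatidylinositol 3-kinase, whose regulatory subunit p85 alpha is encoded by Pik3r1, and the lipid it makes activates AKT1 and AKT2. AKT phosphorylates FOXO1, FOXO3 and FOXO4 and keeps them out of the nucleus, and when AKT is inactive the FOXO factors turn on genes of protein breakdown in muscle. CREB1 is a transcription factor that is phosphorylated downstream of cAMP and binds the cAMP response element, and Irs2 is known as one of its targets in pancreatic beta cells.

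The peak lists of the 4 libraries held 10835, 14975, 7482 and 4051 peaks. Read depth is unknown, so a gene without a peak fell short of the calling threshold in that library and may still be bound. Of 10 skeletal muscle markers, 6 had a peak within 1000 bp of a gene end in both CTRL libraries, among them Ckm and Des. By the same rule 32.2% of all protein-coding genes did. Myh1, Mef2c and Casq1 had none in any library. None of the 6 endothelial, 6 fibroblast, 6 leukocyte, 6 adipocyte or 4 satellite cell markers had one in both CTRL libraries or in any C26 library. Of these, Kdr, Col1a1 and Cdh15 had one in CTRL 2 alone (4.36-, 4.89- and 5.51-fold), as did the muscle marker Myh4 (5.51-fold). Fold enrichment over input is the authors' value and is scaled within a library, so the strength of a peak is also given as its percentile among the peaks of its list, ranked on −log10 q (100 for the strongest). Neither is compared between libraries.

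Nearly all of the pathway from receptor to FOXO factor carried phospho-CREB1 peaks in CTRL muscle. The exceptions were Foxo4, which had no peak in any library, and Foxo1, which had none in CTRL 1. Both CTRL libraries had a peak at 8 of 10 genes, against 45.4% of all protein-coding genes by the same rule. A peak in both C26 libraries was found at 6 of 10, against 21.1% of all genes. The same 6 genes (Insr, Igf1r, Irs2, Akt1, Akt2 and Foxo3) had a peak in all 4 libraries, against 20.8%. The peaks need not be at the same place. Insr had no region that all 4 libraries shared, and that of Akt1 lay 8925 to 9251 bp outside its span, near Siva1. None of the 10 had peaks in both CTRL and neither C26 library, a pattern seen at 8.72% of all genes. The genes are long, with a median span of 70.1 kb against 17.2 kb for all protein-coding genes, and a long span holds more peaks under this rule. Among genes of 20000 bp or more, 52.1% had peaks in both CTRL lists, and 8 of 9 of the insulin, AKT and FOXO genes of that length did. The median percentile of the peaks at the 10 genes was 56.8, 65.2, 34.7 and 37.6. Taking the strongest peak of each gene, the median percentile was 77.2, 85.9, 62.2 and 61.8 at these genes, against 65.8, 71.6, 61.9 and 59.3 over all genes with a peak. The strongest of several peaks tends to rank higher. Counting genes without a peak, the mean number per gene was 2.0, 2.1, 1.5 and 1.1 here, against 0.702, 0.944, 0.499 and 0.275 over all genes. The part of peak number in the higher percentiles was not tested.

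**Figure D1:**
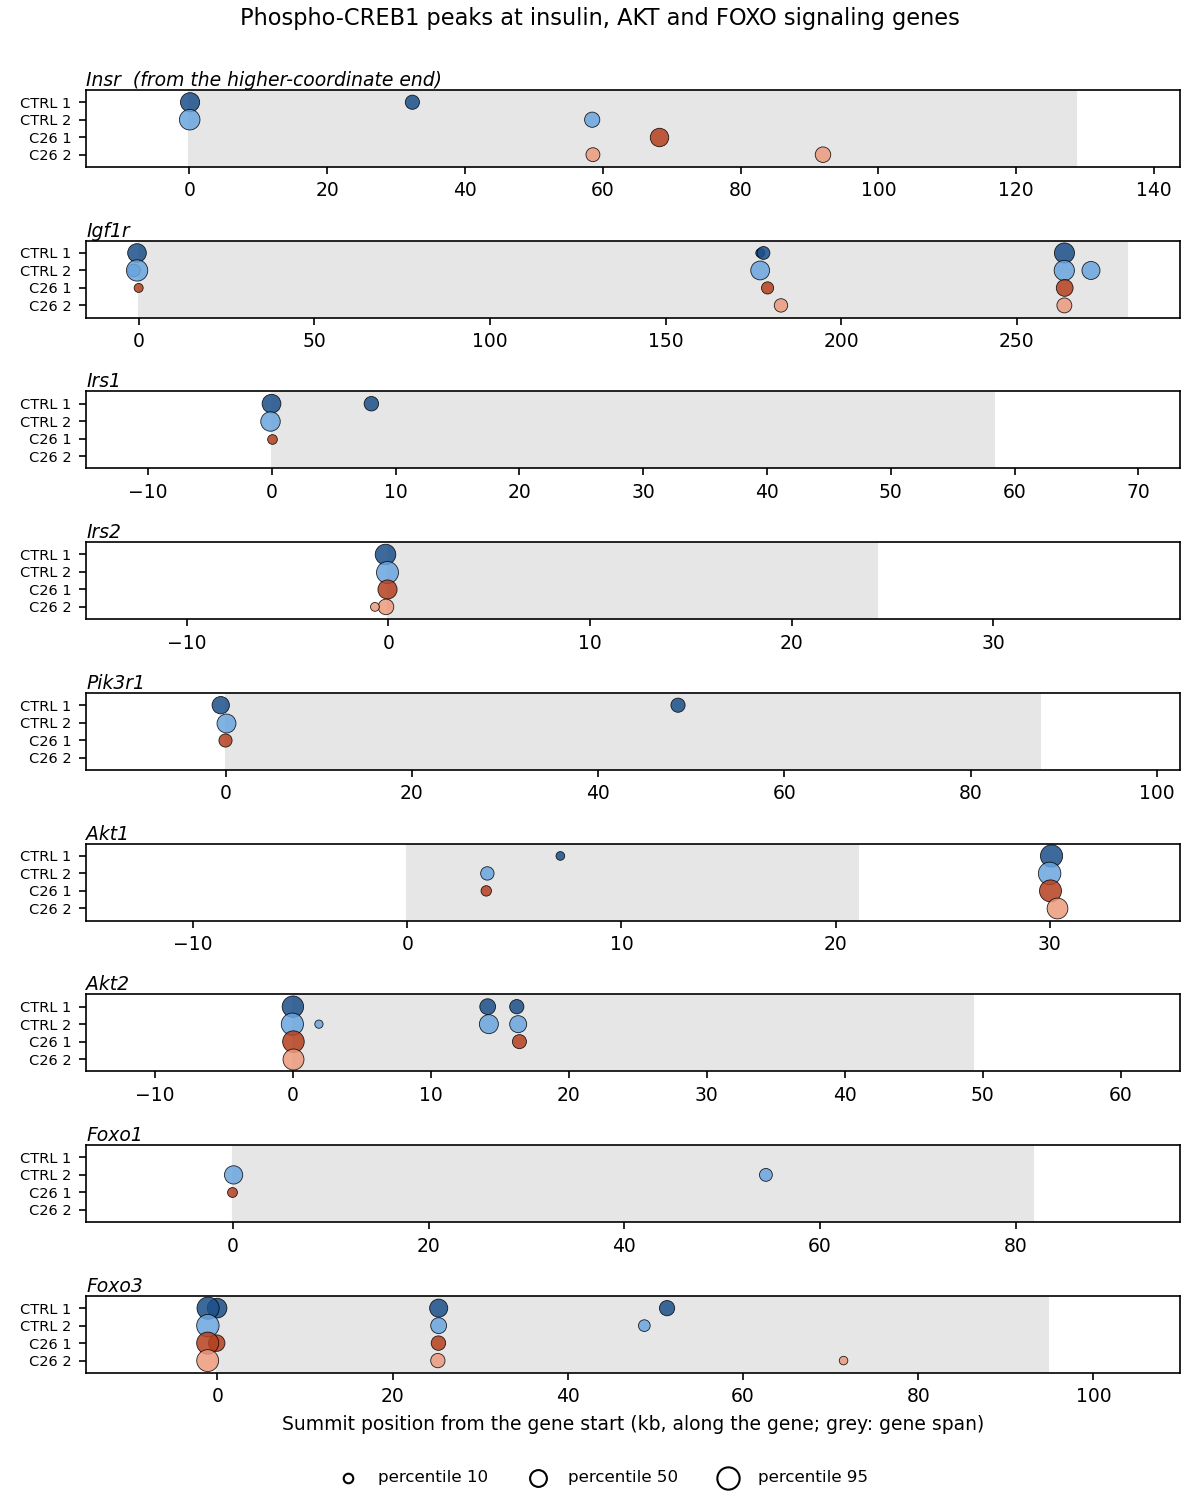
Each panel is 1 gene, with the summit of every peak plotted by its distance from the gene start in kb and 1 row for each library. Point size is the percentile of strength within the list, and grey marks the span of the gene. At Irs2, Akt2 and Foxo3 the largest points of every library sit at or just before the start, and at Akt1 they lie 8925 to 9251 bp past the other end. Foxo4 had no peak and is not drawn.

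Peaks near a gene end lay at the start of the gene wherever its strand is known. Of 29 peaks within 1500 bp of an end, 27 belonged to genes whose strand is in the promoter table, and all 27 lay at the start. Within 1000 bp of an end, both CTRL libraries had a peak at 6 of 10 genes (32.2% of all genes), both C26 libraries at 2 (13.0%) and all 4 libraries at the same 2, Akt2 and Irs2 (12.7%). At 1 of 10, Insr, both CTRL libraries and no C26 library had it (7.40% of all genes), and at 0 of 10 did both C26 libraries and no CTRL library have it (0.0274%). The strongest Foxo3 summits lay just past 1000 bp. With a limit of 1500 bp, chosen after the positions were seen, the counts were 7 of 10 in both CTRL libraries (33.7% of all genes) and 3 of 10 in both C26 libraries (13.7%). By that limit, a peak near the start was present at 7, 8, 7 and 3 genes in the 4 libraries, counting the higher-coordinate end of Insr. The share of all genes by that limit was not counted for single libraries. By the rule of 10000 bp, 8, 9, 9 and 6 of the 10 genes had a peak, against 47.3%, 53.8%, 37.8% and 22.8% of all genes. C26 2, the shortest list, had start peaks only at Akt2, Irs2 and Foxo3.

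Among the receptors, Insr was the gene whose end peak was missing from both C26 libraries. Insr encodes the insulin receptor and spans chromosome 8, 3150922 to 3279649. Its peak lay 100 and 48 bp inside the higher-coordinate end, with 9.98-fold enrichment (percentile 67.7) in CTRL 1 and 14.1-fold (percentile 79.2) in CTRL 2. The merged region was chromosome 8, 3279351 to 3279861, and neither C26 list had a peak that overlapped it. Both CTRL peaks were still listed with all lists cut to one length, an alternative that cannot add a C26 peak. Inside the span the libraries shared little. CTRL 2 and C26 2 had overlapping peaks 58459 and 58566 bp from the nearest end (6.36- and 5.95-fold). CTRL 1, C26 1 and C26 2 each had a further peak of its own (5.89-, 7.69- and 6.36-fold). The 7.69-fold peak of C26 1, at percentile 62.2, was its strongest at Insr.

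Igf1r, the IGF-1 receptor gene, is the longest of the 10 at 281 kb (chromosome 7, 67952257 to 68233668) and had the most peaks, 14 over the 4 libraries. Before its start, CTRL 1 and CTRL 2 had summits at 484 and 454 bp, with 7.49- and 16.2-fold enrichment (percentiles 63.7 and 85.9). C26 1 had a peak of 3.62-fold at percentile 7.83 whose summit was 10 bp before the start, and C26 2 had none. The site that all 4 libraries shared lay deep in the gene, 17756 to 17877 bp before its far end (chromosome 7, 68215562 to 68216724). Enrichment there was 11.9-, 12.8-, 5.81- and 6.23-fold, at percentiles 75.1, 76.8, 49.9 and 37.6. A further region about 177 kb into the gene, chromosome 7, 68128978 to 68130382, had peaks in both CTRL libraries only. Its strongest peaks were 4.78-fold (percentile 25.4) in CTRL 1 and 8.88-fold (percentile 65.2) in CTRL 2. Close to it, C26 1 had a peak at 68131242 to 68131494 (4.23-fold) and C26 2 at 68134950 to 68135230 (5.60-fold), neither of which overlapped the CTRL region.

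**Figure D2:**
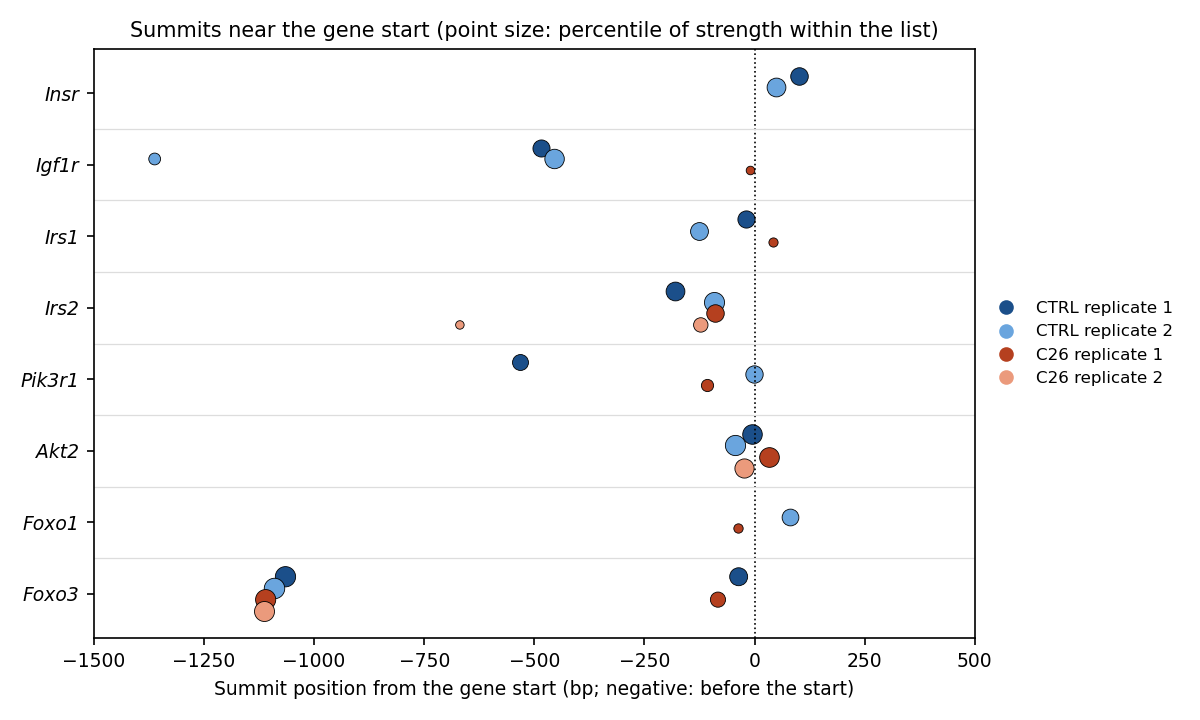
Summits within 1500 bp of the gene start are plotted by their distance from it in bp, with negative values before the start, for 8 genes and 4 libraries. Point size is the percentile of strength within the list. Irs2, Akt2 and Foxo3 have points of all 4 libraries, Insr has points of CTRL libraries only, and the Foxo3 summits form a column at 1065 to 1113 bp before the start. Insr is drawn from its higher-coordinate end, and Akt1 had no such summit.

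The genes of the docking proteins IRS1 and IRS2 differed in how many libraries had a start peak. Irs2 (chromosome 8, 10984681 to 11008929) had a peak in every library with summits 181, 92, 89 and 122 bp before the start. Its enrichment was 12.9-fold (percentile 79.2) and 24.1-fold (92.1) in CTRL, and 6.87-fold (67.5) and 6.51-fold (42.1) in C26 muscle. In CTRL 2 the Irs2 peak was 2495 bp wide, at percentile 99.8 of the widths in that list. C26 2 had a second, weaker Irs2 peak (4.49-fold) 669 bp before the start. Irs1 (chromosome 1, 82233105 to 82291439) had start peaks of 8.46-fold (percentile 64.7) and 11.0-fold (70.3) in CTRL 1 and CTRL 2 and of 3.60-fold (10.6) in C26 1. Their summits lay 19 and 126 bp before the start in CTRL 1 and CTRL 2 and 43 bp after it in C26 1. C26 2 had no peak at Irs1, and CTRL 1 had another of 5.85-fold 8046 bp into the gene. A difference between Irs1 and Irs2 was not tested, since peaks come as present or absent in 4 libraries.

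The 250 bases before the starts of these paralogs are shown from RefSeq (GRCm38.p6), because they let the bound sequences be compared. The strand is minus for both, and capitals mark the core of the cAMP response element TGACGTCA, which reads TGACG on one strand and CGTCA on the other.
Irs1, chr1:82291440-82291689: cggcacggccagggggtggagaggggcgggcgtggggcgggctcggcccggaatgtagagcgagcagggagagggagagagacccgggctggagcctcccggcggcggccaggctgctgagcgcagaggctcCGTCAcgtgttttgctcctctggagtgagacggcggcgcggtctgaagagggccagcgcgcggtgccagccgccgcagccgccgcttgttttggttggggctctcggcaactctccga
Irs2, chr8:11008930-11009179: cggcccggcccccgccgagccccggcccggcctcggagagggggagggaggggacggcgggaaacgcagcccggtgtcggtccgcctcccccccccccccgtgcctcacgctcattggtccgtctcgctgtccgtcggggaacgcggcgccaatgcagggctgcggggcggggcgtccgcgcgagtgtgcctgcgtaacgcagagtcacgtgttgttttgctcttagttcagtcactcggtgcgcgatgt
The Irs1 sequence held the core once, with its first base 118 bases before the start. The core lay 10 bp from the summit of CTRL 2 and 97 bp from that of CTRL 1, and the C26 1 peak did not reach it. The Irs2 sequence did not hold the core on either strand, and the peaks extend beyond these 250 bases. The longest runs of letters common to both sequences were GTCACGTGTT and TGTTTTGCTC, each 10 letters long. The first began 117 bases before the start in Irs1, overlapping the core, and 46 bases before it in Irs2, and on either strand it occurred in 0.0700% of the 32851 promoter sequences. These runs were looked for after the sequences were seen and were picked from these 2 promoters. The share of promoters therefore does not measure how unusual such a match is, which was not tested.

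Pik3r1, which encodes the p85 alpha regulatory subunit (chromosome 13, 101680761 to 101768217), had start peaks in 3 libraries. They were 7.10-fold (percentile 54.0) in CTRL 1, 9.76-fold (66.1) in CTRL 2 and 4.88-fold (27.2) in C26 1. The summit of CTRL 1 lay 532 bp before the start and its peak did not overlap the others, whose summits lay 1 and 108 bp before the start. The CTRL libraries therefore had no region in common at Pik3r1 although both had a peak near its start. C26 2 had no peak at the gene.

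Of the AKT genes, Akt2 carried a start peak in all 4 libraries and Akt1 carried none. Akt2, whose product is needed for insulin-stimulated glucose uptake in muscle and fat, spans chromosome 7, 27591552 to 27640826. The summits of its start peak lay within 44 bp of the start, with 13.9-fold (percentile 86.8), 27.2-fold (93.7), 14.8-fold (88.2) and 12.1-fold (83.0) enrichment. This peak ranked at percentile 83.0 or above in each of the 4 lists. Akt1 (chromosome 12, 112653821 to 112674884) had only weak peaks inside its span, of 4.11-, 5.42- and 4.21-fold in CTRL 1, CTRL 2 and C26 1. Its strong peak, of 18.5-, 40.6-, 15.0- and 11.4-fold, lay 8925 to 9251 bp past the far end of the gene. That peak was 22 to 258 bp from an end of Siva1, a neighboring gene that encodes a regulator of apoptosis. No other peak given to the 10 genes lay as far outside a span. Just beyond the limit of 10000 bp, Foxo1 had a 4.22-fold peak at 10202 bp in C26 1, and Foxo4 had peaks at 13316 and 13401 bp in CTRL 2 and C26 1 that were 98 and 183 bp from an end of Med12.

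A second site in Akt2 was called in each CTRL list and in no C26 list. This region, chromosome 7, 27605526 to 27606042, lay about 14.1 kb into the gene, and its summits were 131 and 46 bp before a further start that RefSeq lists for Akt2. Enrichment was 5.33-fold (percentile 43.2) in CTRL 1 and 9.81-fold (66.5) in CTRL 2. About 2 kb farther on, at 27607596 to 27608164, both CTRL libraries (4.48- and 7.34-fold) and C26 1 (4.45-fold) had a peak. With lists trimmed to equal length, the CTRL-only region in Akt2 and the one about 177 kb into Igf1r were no longer CTRL-only. Their CTRL peaks ranked below the 4051 strongest and were cut, and trimming cannot add a C26 peak. The Igf1r start region became CTRL-only by that alternative, as its C26 1 peak was cut.

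The first start of Akt2 and the internal start beside this region both held the core of the cAMP response element close to a summit, and the sequences are shown for that reason. Capitals mark the core, TGACG or CGTCA, on the plus strand, and the internal site is given as a short window around it.
Akt2, first start, chr7:27591302-27591551: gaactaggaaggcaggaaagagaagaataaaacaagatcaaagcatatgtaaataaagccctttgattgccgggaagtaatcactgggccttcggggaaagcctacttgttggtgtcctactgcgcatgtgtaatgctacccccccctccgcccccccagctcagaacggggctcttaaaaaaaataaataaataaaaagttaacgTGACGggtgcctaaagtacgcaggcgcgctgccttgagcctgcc
Akt2, internal start, chr7:27605719-27605748: accacaggactgCGTCAcagacacctcggc
At the first start the core began 44 bases before the start, 2 bp from the summit of CTRL 2, 36 bp from that of CTRL 1, and 76 and 17 bp from those of C26 1 and C26 2. At the internal start the core was 67 and 18 bp from the summits of CTRL 1 and CTRL 2. Of the 13 starts that the table lists for 8 of the 10 genes, 5 (38.5%) held the core on either strand in the 250 bases before them. This compares with 20.2% of 21263 promoters of protein-coding genes. The 5 included both Akt2 starts shown here and a further Pik3r1 start whose promoter sequence no peak of any library overlapped. None of the 13 held the full element TGACGTCA, which occurred in 1.92% of those promoters. These matches are a description of the letters and were not tested. Insr and Foxo4 are not in the promoter table.

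Of the 3 FOXO genes examined, Foxo3 had the highest-ranked peak in each of the 4 lists. It encodes a FOXO factor that activates atrophy and autophagy genes in muscle, and it spans chromosome 10, 42181845 to 42276695. A peak 1065 to 1113 bp before its start was present in all 4 libraries, with 22.1-fold (percentile 94.2), 33.7-fold (96.2), 16.9-fold (92.8) and 17.0-fold (91.2) enrichment. These 4 summits lay within 48 bp of each other, so the position was nearly the same in every library. Nearer the start, CTRL 1 and C26 1 had separate, weaker peaks with summits 36 and 83 bp before it (8.23- and 4.78-fold). In CTRL 2 a single peak of 2264 bp, chromosome 10, 42276211 to 42278474, covered both positions. The nearer summits lay 26 and 21 bp from a core motif, CGTCA, shown in capitals.
Foxo3, minus strand, chr10:42276742-42276771: gacccgccccgcCGTCAtcctaggttgagg
A further Foxo3 site inside the gene, about 25 kb after the start, was also shared by all 4 libraries, with 8.54-, 6.21-, 5.15- and 5.98-fold enrichment at percentiles 59.5, 43.7, 34.7 and 33.9. CTRL 1, CTRL 2 and C26 2 each had 1 further Foxo3 peak that no other library shared (5.94-, 4.88- and 4.46-fold).

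Foxo1 (chromosome 3, 52268337 to 52350109), which is held in the cytoplasm by insulin in the same way, had a start peak in 1 library of each group. Enrichment was 8.98-fold (percentile 60.8) in CTRL 2 and 3.76-fold (percentile 11.3) in C26 1, with summits 81 bp after and 38 bp before the start. CTRL 2 had another peak of 5.44-fold inside the gene. Foxo4 (chromosome X, 101254261 to 101260873), the shortest of the 10 genes at 6.61 kb, had no peak within 10000 bp in any library. The groups overlapped at Foxo1, since each had 1 library with a start peak and 1 without.

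The comparison of CTRL with C26 muscle asks whether this occupancy differs in cachexia. The 10 genes had 20 and 21 peaks in the CTRL and 15 and 11 in the C26 libraries. Both CTRL libraries were above both C26 libraries, at 20.5 ± 0.707 against 13.0 ± 2.83 peaks (SD, n = 2 each), with a log2 ratio of geometric means of 0.67 (two-sided exact permutation p = 0.333, the smallest that 2 libraries against 2 can give). The lists themselves differed in length in the same direction, and the part of list length in this result was not tested beyond the values that follow. As a share of its list, the peaks at these genes made up 0.185% (95% Wilson interval 0.120 to 0.285) and 0.140% (0.0917 to 0.214) in CTRL, and 0.200% (0.122 to 0.331) and 0.272% (0.152 to 0.486) in C26 muscle. These intervals cover counting error only. By share both C26 libraries were above both CTRL libraries (two-sided exact permutation p = 0.333), and all 4 intervals overlapped. When only the 4051 strongest peaks of each library were kept, the 10 genes had 9, 7, 7 and 11 peaks, and the groups overlapped (log2 ratio −0.14, exact permutation p = 1.00).

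**Figure D3:**
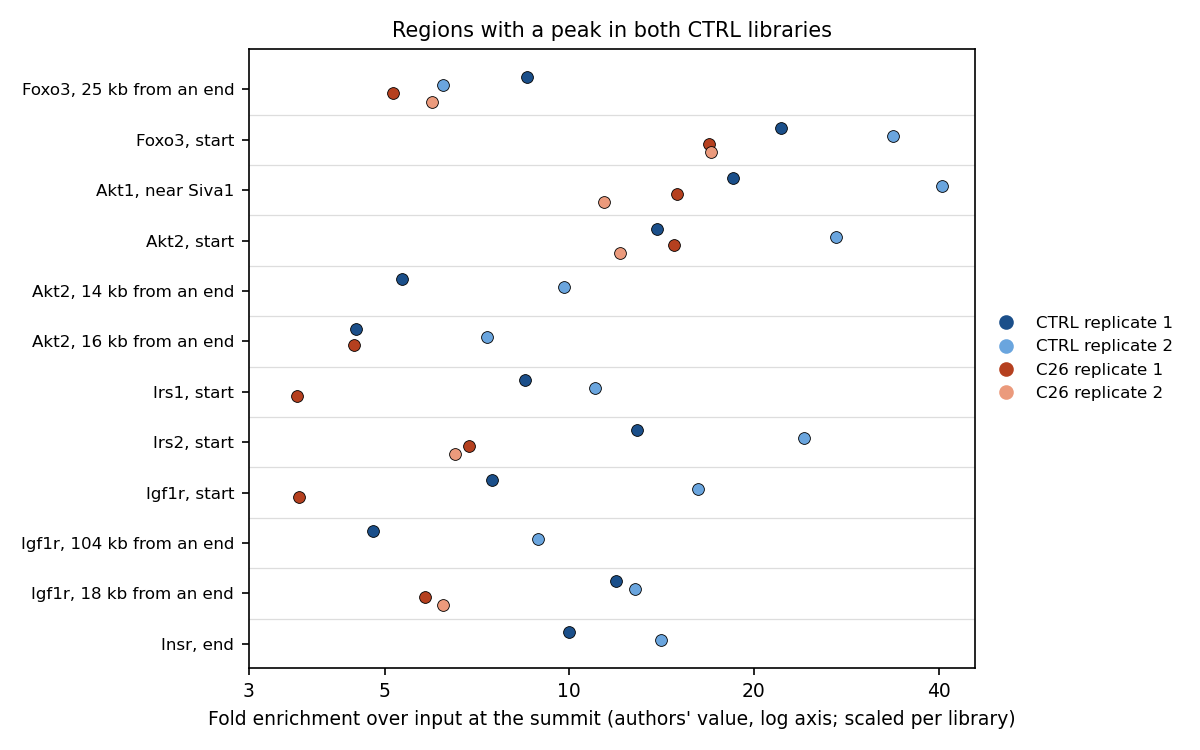
Fold enrichment over input at the summit, as the authors' peak caller gave it, is plotted on a log axis for each of the 12 regions with a peak in both CTRL libraries, 1 point for each library with a peak. Values are scaled within each library. The Insr end and the sites inside Akt2 (14 kb) and Igf1r (104 kb from an end) show CTRL points only, and the Foxo3 start, the site near Siva1 and the Akt2 start show the highest values.

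By region, 12 of the 32 were reproducible in CTRL muscle, meaning that both CTRL libraries had a peak. This is a smaller share than over the whole series, where 8972 of 17607 merged regions were reproducible in CTRL. Of these 12, 6 had a peak in all 4 libraries (33.2% of the reproducible CTRL regions of the whole series), 3 had a peak in 1 C26 library and 3 had none in C26 (30.8%). The 3 CTRL-only regions were the Insr end, the internal Akt2 start and the site about 177 kb into Igf1r. Another 16 regions had a peak in 1 library alone, 11 of them in a CTRL library. The CTRL lists are also the longer ones, and the share of such regions over the whole series was not counted. The number of CTRL-only regions was 8 when CTRL 1 was left out, 11 without CTRL 2, 6 without C26 1 and 3 without C26 2. Such counts are expected to be higher by definition, because the call then asks for a peak or an absence in fewer libraries. With a CTRL library left out, regions of 1 library alone can enter. The start peaks of Irs1 and Igf1r were in C26 1 alone of the C26 libraries and became CTRL-only without it.

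Beyond the 10 genes, 71 other genes of the pathway were grouped by role and read by peaks within 1000 bp of a gene end. Of these, 49 had such a peak in each CTRL library (69.0%, against 32.2% of all genes) and 27 had one in all 4 (12.7% of all genes). The lists were chosen with earlier results of these data known, so these shares are descriptive and were not tested. A peak in both CTRL and neither C26 library was found at 12 (7.40% of all genes), and none had one in both C26 and neither CTRL library. The 12 were 24.5% of the 49, near the 23.0% found over all genes with such a peak in both CTRL libraries. Among 14 ligands, receptors, adaptors and inhibitors, 4 had it in both. The CTRL-only genes were Sos1 (5.08- and 5.87-fold), a guanine nucleotide exchange factor for RAS, and Grb14 (4.68- and 4.90-fold), an inhibitor of the insulin receptor. The adaptor gene Shc1, which shares its CTRL 2 peak with Pygo2, had one in all 4, although the C26 2 summit was at its other end. The growth factor genes Igf1 and Igf2 had none in any library.

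Among 15 regulators of PI3K and AKT, 10 had it in each CTRL library and 6 in all 4, with the highest mean CTRL percentiles at Trib1, a pseudokinase gene (14.3-, 26.4-, 14.2- and 12.2-fold), and Phlpp1, a phosphatase that dephosphorylates AKT (15.0-, 24.0-, 12.0- and 9.41-fold). Pik3cb, which encodes the catalytic subunit p110 beta, was CTRL-only (3.98- and 10.3-fold). Of 7 genes of AKT substrates, 5 had a peak in all 4 libraries, with the highest mean CTRL percentiles at the glycogen synthase kinase 3 genes Gsk3a (14.1-, 21.8-, 9.92- and 17.5-fold) and Gsk3b (11.9-, 21.1-, 7.07- and 8.15-fold).

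Genes of the mTOR complexes, the growth branch downstream of AKT, had it in each CTRL library at 15 of 18, of which 6 were in all 4 libraries and 5 CTRL-only. Of those in all 4, the highest mean CTRL percentiles were at Rps6kb2, an S6 kinase gene whose peak it shares with Carns1 (112-, 109-, 52.5- and 52.7-fold), and Rheb, the GTPase that activates mTORC1 (22.7-, 39.2-, 18.8- and 16.6-fold). The CTRL-only genes were Mtor, the kinase itself (8.96- and 13.9-fold, percentiles 70.7 and 78.9), Rptor (4.84- and 11.4-fold), Deptor (4.59- and 10.0-fold), Ddit4 (3.78- and 15.2-fold) and, named after its values were seen, Rictor (3.39- and 8.53-fold). Rptor and Rictor encode the defining subunits of mTORC1 and mTORC2, and Deptor and Ddit4 encode inhibitors of mTOR signaling. Of 17 FOXO target genes, 15 had it in each CTRL library, 9 of them in all 4. Sod2, mitochondrial superoxide dismutase (15.0-, 38.4-, 5.82- and 8.55-fold), and Atg12, an autophagy gene that shares its peak with Ap3s1 (20.6-, 18.7-, 15.3- and 13.2-fold), had the highest mean CTRL percentiles of these, although other genes ranked above Sod2 in C26 muscle, among them Bcl6 (15.2- and 17.6-fold in C26 1 and C26 2), named after its values were seen. The CTRL-only FOXO targets were the cell cycle inhibitor gene Cdkn1b (8.28- and 12.6-fold), the autophagy kinase gene Ulk1 (5.41- and 8.45-fold), Fbxo21 (5.97- and 5.68-fold) and the catalase gene Cat (4.84- and 6.21-fold).

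**Figure D4:**
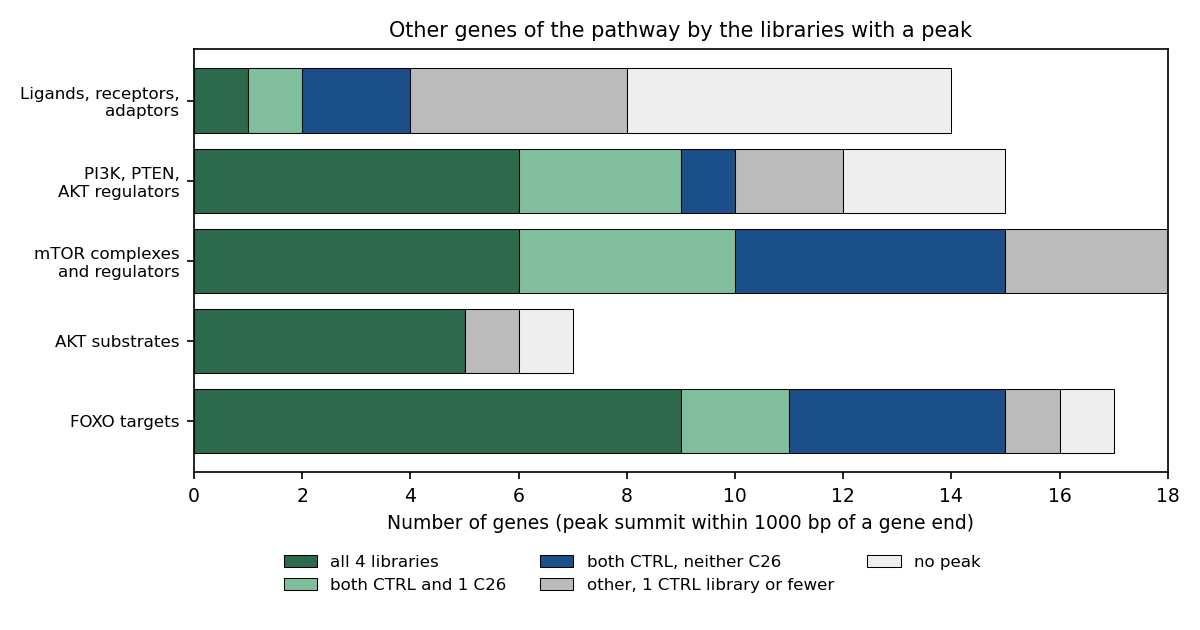
Bars give the number of genes in each of the 5 lists, divided by the libraries with a peak summit within 1000 bp of a gene end. The mTOR list has 5 genes and the FOXO target list 4 with a peak in both CTRL and neither C26 library. The list of ligands, receptors and adaptors has 6 of 14 genes with no peak.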

How the data were processed

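Phospho-CREB1 ChIP-seq peak lists of 4 libraries were analysed, and the bigWig tracks the labels name were not used here. The submitters' processing notes name MACS2 2.1.4, Bowtie2 2.3.5.1, SAMtools 1.6, FastQC 0.11.2 and Picard, and the build mm10 (GRCm38). Per the labels, peaks were called for each library against an input of its own group at q 0.05; a further filter is named only by an abbreviation. The deposited lists give the summit, the fold enrichment over input (a ratio), −log10 p and −log10 q of each peak, made by the authors. Summits were matched to gene spans of GRCm38.p6, and peaks overlapping by at least 1 bp were merged into regions. The 2 groups were compared by exact permutation over libraries. Gene starts and sequences came from RefSeq promoters (GRCm38.p6). Assignment and merging were tested on simulated data. Alternatives were other windows, a stricter q, trimmed lists, a stricter overlap and leaving out each library. All 10 genes and the genes nearest to their peaks were described. In the 5 lists, up to 4 CTRL-only genes and the 2 in all 4 libraries with the highest mean CTRL percentile were named. The genes and lists were chosen with earlier results of these data known. Python 3.11.15, pandas 2.3.3, scipy 1.17.1 and matplotlib 3.10.9 were used.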

Additional observations from a re-analysis of the deposited data

How the results depend on the processing

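The log2 ratio of peaks at the 10 genes, CTRL over C26, was −0.14 instead of 0.67 with lists trimmed to equal length, the only reversal among the alternatives tried. It ranged from 0.45 to 0.90 when 1 library was left out, and the replicate block, a sign-flip permutation over the same-numbered pairs, gave 0.67 (exact p = 0.500, the smallest that 2 pairs allow). Genes called in each CTRL list numbered 5 with summits inside the span only, and 8 to 9 with 1 library left out. Genes with a peak in both C26 libraries numbered 3 inside the span only, 2 within 1000 bp and 3 within 1500 bp of an end, and 6 to 9 with 1 library left out. CTRL-only regions numbered 1 within 1000 or 1500 bp of an end, 5 with −log10 q of 5 or more, 2 with trimmed lists, and 3 to 11 with 1 library left out. Regions in all 4 libraries numbered 3 inside the span only and 3 within 1000 or 1500 bp of an end, and 6 to 9 with 1 library left out. The narrower windows by construction left out the peak near Siva1 that was given to Akt1. Leaving out a library by definition makes these calls easier to meet, since a peak or an absence fewer is required. For the other changes the cause was not tested. Ranking peaks by fold enrichment instead of −log10 q moved the percentile of a gene's strongest peak by a median of 1.25 points and at most 12.2 (Insr in C26 1, 62.2 to 74.4). Read depth behind the lists is unknown.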

Other observations

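The ubiquitin ligase genes of muscle atrophy Fbxo32 and Trim63, both FOXO targets, were singled out after their values were seen. Fbxo32, which encodes atrogin-1, had a peak within 1000 bp of a gene end in all 4 libraries, at 5.35-, 13.1-, 4.14- and 7.48-fold (CTRL 1, CTRL 2, C26 1 and C26 2). Trim63, which encodes MuRF1, had one in CTRL 2 (4.27-fold), C26 1 (7.19-fold) and C26 2 (5.87-fold). The C26 1 summit of Trim63 was at the other end of the gene from those of the other libraries. The FOXO target and glucocorticoid-induced gene Klf15 had no such peak in any library.

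Foxo6, the FOXO gene that is not among the 10, had a peak within 1000 bp of a gene end in every library, with 8.67-, 14.6-, 7.33- and 4.76-fold enrichment in the same order. By the same limit Foxo4 had none.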
